A study of Mus musculus with 8 samples.

Results

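The earliest replicating stretches of the mouse embryonic stem cell genome were described as windows of 50 kb on the autosomes with the highest replication timing scores. They were chosen by the measured values themselves, as windows with a mean of 4 or more over all 4 deposited profiles. A window needed values at 5 or more of its 10 positions, and 4695 of 48068 autosomal windows met the rule (9.77%, or 234.75 of 2403.4 Mb). Windows that touched were joined, which gave 820 domains. The cells had been collected 2 days after addition of dTAG, a compound that brings a protein carrying its tag to the degradation machinery, here the zinc finger transcription factor YY1, or as controls. Each profile was built from an early and a late S-phase fraction after a 2 h BrdU pulse, so that 8 samples gave 4 profiles: dTAG 1, dTAG 2, control 1 and control 2. Culture and treatment are left by the labels to a previous paper, and whether control cells carry the same tagged YY1, and whether the profiles came from 1 clone or from separate cultures, is not given in the sources used here. A p-value below therefore measures the spread between these profiles, which may be technical. The profiles hold no measure of YY1 itself, so its loss was not checked. For dTAG 1, sample titles and stated fractions disagree on which sample was early. The score is signed and smoothed, high values were read as early, its formula and log base are not stated, and it carries no counts, so the depth behind a value is unknown.

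Replication starts at many origins along each chromosome, and origins that lie near each other tend to fire at a similar point in S phase. The stretches copied first are known as open, transcribed chromatin rich in genes, whereas the last ones are often gene-poor and held at the nuclear lamina. Repli-seq reads this order from newly made DNA, which carries the nucleotide analogue BrdU, in cells sorted by DNA content into the beginning and the end of S phase.

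Sequences of 2 kinds show what lies in these windows. The Hox clusters, which encode transcription factors of body patterning, hold microRNA genes that share a seed, the stretch that pairs with target transcripts. In the mature RNAs below, from RefSeq on GRCm38.p6 and written 5′ to 3′, capitals mark the seed, bases 2 to 8.

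mmu-miR-10a-5p, HoxB, chr11:96317186-96317208, + strand: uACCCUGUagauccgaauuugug
mmu-miR-10b-5p, HoxD, chr2:74726074-74726096, + strand: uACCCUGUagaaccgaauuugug
mmu-miR-196a-5p, HoxB, chr11:96265187-96265208, + strand: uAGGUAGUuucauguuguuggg
mmu-miR-196b-5p, HoxA, chr6:52230129-52230150, - strand: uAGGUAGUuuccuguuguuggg

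The first pair differs at 1 base, U12A counted from the 5′ end of miR-10a, outside the shared seed ACCCUGU. The second pair also differs at 1 base, A12C counted from the 5′ end of miR-196a, outside the shared seed AGGUAGU. Mir10a lay in a window that scored 5.84 and 5.36 in dTAG 1 and dTAG 2, and 5.30 and 4.75 in control 1 and control 2. Mir10b, at the HoxD cluster, lay in a window that did not meet the rule, with 3.15 and 2.11 in the dTAG profiles and 3.17 and 1.57 in the controls. All the miR-196 genes lay in member windows, Mir196a-1 at a mean of 5.24, Mir196b at 5.08 and Mir196a-2, which encodes the same mature RNA in HoxC, at 4.84.

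Promoters of these windows were mostly rich in CpG dinucleotides. The 3 printed here, from 250 bases before to 50 bases after the gene's start, are examples chosen after their values were seen. The promoters of Yy1, the gene of the depleted factor, and of the olfactory receptor gene Olfr462 are printed with each CpG in capitals.

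Yy1, chr12:108793047-108793346, + strand: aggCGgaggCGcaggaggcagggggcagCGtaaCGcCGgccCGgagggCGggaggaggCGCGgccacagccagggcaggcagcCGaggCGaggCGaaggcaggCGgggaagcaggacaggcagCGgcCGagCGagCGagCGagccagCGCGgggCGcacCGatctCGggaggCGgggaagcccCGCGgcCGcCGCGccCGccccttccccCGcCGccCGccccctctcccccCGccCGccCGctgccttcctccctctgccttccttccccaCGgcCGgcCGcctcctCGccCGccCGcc
Olfr462, chr11:87889845-87890144, - strand: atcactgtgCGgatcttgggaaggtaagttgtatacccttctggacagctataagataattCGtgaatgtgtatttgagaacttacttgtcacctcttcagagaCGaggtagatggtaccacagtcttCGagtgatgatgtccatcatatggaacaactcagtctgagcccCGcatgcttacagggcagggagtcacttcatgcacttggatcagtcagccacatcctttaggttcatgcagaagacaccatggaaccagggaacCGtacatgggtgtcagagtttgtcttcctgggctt

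The Yy1 promoter held 42 CpGs and 81.0% GC, and that of Olfr462 held 6 CpGs and 47.3% GC. In the promoter of Ctcf, the gene of the zinc finger protein that anchors chromatin loops, capitals mark the 1 match to AANATGGC, the core of a YY1 recognition sequence, found here on the opposite strand as GCCATTTT.

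Ctcf, chr8:105636288-105636587, + strand: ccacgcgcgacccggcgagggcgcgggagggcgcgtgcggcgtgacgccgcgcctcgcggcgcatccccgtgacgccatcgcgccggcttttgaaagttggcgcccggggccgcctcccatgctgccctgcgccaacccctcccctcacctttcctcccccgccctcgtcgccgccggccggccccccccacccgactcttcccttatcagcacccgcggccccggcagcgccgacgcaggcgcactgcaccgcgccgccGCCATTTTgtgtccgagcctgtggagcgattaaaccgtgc

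The match spans bases 261 to 268 of that window. Either strand held AANATGGC in 8.15% of 4443 promoters whose gene starts in a member window, against 6.15% of 12013 other autosomal promoters and 6.69% of all 16456. Promoters in windows scoring 3 to 4 held it in 8.35%. A match says only that the letters are present.

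The scores that chose the windows are given as a description. Over the 4695 windows the mean was 4.64 in dTAG 1, 4.11 in dTAG 2, 4.66 in control 1 and 4.20 in control 2. The authors' normalization gave both profiles of a replicate number 1 set of values, with a mean over all positions of 0.20 in replicate 1 and -0.20 in replicate 2, so these levels cannot be compared between the numbers. In 1743 windows (37.1%) every profile reached 4 by itself, and in all 4695 every profile was above 0. Taken alone, dTAG 1 reached 4 in 90.8% of the windows, dTAG 2 in 55.8%, control 1 in 93.3% and control 2 in 64.4%. By rank, which does not depend on that scale, 82.0% of the members were among the 4695 highest autosomal windows of dTAG 1, 71.7% among those of dTAG 2, 85.8% among those of control 1 and 85.3% among those of control 2. The order of dTAG 2 was thus the furthest from the mean of the 4. The dTAG profiles alone would have chosen 4687 windows and the controls alone 4631, and 3973 windows met the threshold by both pairs. Just inside the threshold, 748 windows had a mean of 4.0 to 4.1, and just outside it 784 windows had 3.9 to 4.0. The group just inside averaged 4.25 and 3.86 in the dTAG profiles and 4.23 and 3.86 in the controls, and the group just outside 4.12 and 3.80 in the dTAG profiles and 4.09 and 3.79 in the controls. Windows with a mean of 5 or more numbered 154. The highest, at 5.40 on chromosome 6 from 86.65 to 86.7 Mb, held Mxd1, a MYC antagonist gene, and Snrnp27, a spliceosome gene, with 5.52 and 4.99 in the dTAG profiles and 5.68 and 5.41 in the controls. On chromosome X, which the rule left out, 58 windows reached 4, the highest at 4.73.

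Their median size was 200 kb with quartiles of 150 and 350 kb, 78 consisted of a single window and the largest spanned 1800 kb. The 135 domains of 500 kb or more covered 98.1 Mb and held 41.8% of the member windows, and 18 domains reached 1 Mb. The longest lay on chromosome 11 from 75 to 76.8 Mb and overlapped 37 protein-coding genes, among them Rpa1, a subunit of the single-strand DNA binding complex of replication forks, Prpf8, a core spliceosome gene, and Smg6, which acts in nonsense-mediated decay. It scored 4.74 and 4.06 in the dTAG profiles and 4.65 and 4.20 in the controls, so that the groups overlapped. The second, on chromosome 5 from 120.4 to 122.1 Mb with Rpl6 and the homeobox gene Cux2, scored 4.86 and 3.99 in the dTAG profiles and 4.80 and 4.18 in the controls. Next came 1550 kb on chromosome 11 around Nf1, which encodes an inhibitor of Ras, and 1450 kb on chromosome 5 with the acetyl-CoA carboxylase gene Acacb. Also among the 10 longest were the stretches with the DNA polymerase delta gene Pold2 on chromosome 11, the immediate early gene Egr1 on chromosome 18, the kinase gene Abl1 on chromosome 2, a cluster of Zfp genes with Rps19 on chromosome 7, and Ctcf with the proteasome gene Psmb10 on chromosome 8. The Ctcf stretch, 1200 kb long, overlapped 54 protein-coding genes, the most of any domain. By mean score the 5 highest domains were those with Casz1 (4.89), a zinc finger gene on chromosome 4, Hdac5 (4.87), a histone deacetylase gene on chromosome 11, Rpl4 and the kinase gene Map2k1 (4.83) on chromosome 9, the growth factor receptor gene Flt4 (4.80) on chromosome 11, and Nptn (4.80), an adhesion gene on chromosome 9.

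Scores declined slowly outside the domains. At the 754 edges of the 377 domains of 250 kb or more, the edge window averaged 4.18, and the next window outside, which the rule holds below 4, averaged 3.83. The mean was 3.46 at 250 kb, 2.84 at 500 kb and 2.17 at 1000 kb from the edge window. At 1000 kb the quartiles were 0.73 and 4.03, and 26.8% of the windows at that distance belonged to another domain, while 19.6% were below 0. The nearest window below 0 lay a median of 1000 kb from a domain, with a range of 250 to 8200 kb. No domain therefore bordered directly on a stretch of negative score. The scores had been smoothed along the chromosome before deposition, and the share of the slope that smoothing gives was not tested. The median gap to the next domain on the chromosome was 400 kb, and 39 gaps consisted of 1 window. Beyond the edge the dTAG and control profiles of a replicate number ran close together: at 500 kb they averaged 3.12 in dTAG 1 and 3.09 in control 1, and 2.56 in dTAG 2 and 2.61 in control 2.

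**Figure D1:**
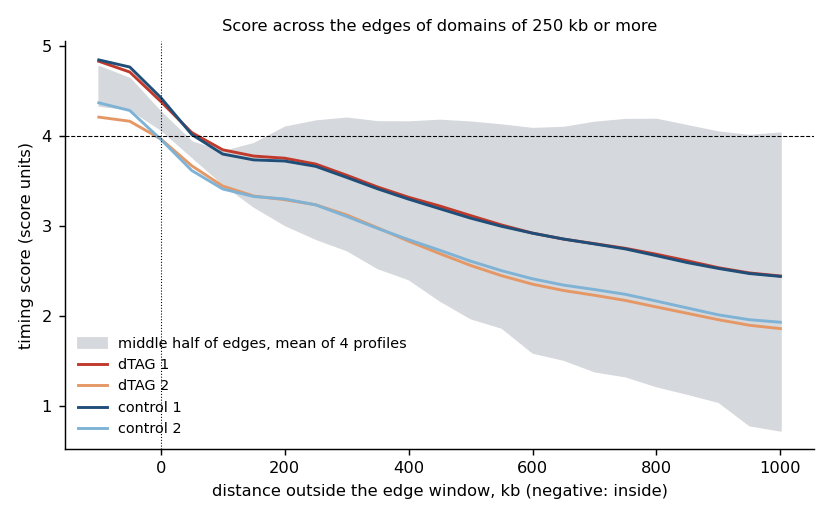
Mean timing score (score units) by distance in kb from the edge window of 377 domains of 250 kb or more, with 1 line for each profile, the interquartile range in grey and the threshold of 4 as a dashed line. The lines of replicate 1 and replicate 2 are separate, and within a number the dTAG and control lines nearly overlap outside the domain.

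The windows were unevenly spread over chromosomes. Chromosome 11 held 603 of them, 25.4% of its windows, followed by chromosome 19 with 16.0%, chromosome 17 with 13.6% and chromosome 5 with 13.5%. The lowest shares were 3.31% on chromosome 3 and 3.88% on chromosome 13. On some chromosomes they crowded at one end: 96.5% of those on chromosome 15 and 89.2% of those on chromosome 4 lay beyond the chromosome's midpoint, against 14.2% on chromosome 16 and 20.4% on chromosome 14.

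Genes were dense in these windows. By midpoint they held 5637 of 20558 autosomal protein-coding genes (27.4%), or 24.0 per Mb, against 6.88 per Mb in the other autosomal windows. The density was 16.3 per Mb in windows scoring 3 to 4 and 2.59 per Mb below -2. Of the domains, 805 overlapped a protein-coding gene, with a median of 5, and the 15 that did not were at most 150 kb long. In 362 windows (7.71%) no protein-coding gene body was present, compared with 14.9% at scores of 3 to 4 and 66.0% below -2. The window with most midpoints, 10, lay on chromosome 19 from 6.05 to 6.1 Mb and included Fau, a ribosomal protein gene, and Syvn1, a ubiquitin ligase gene of the endoplasmic reticulum. Genes in the windows had a median length of 15.3 kb, against 18.9 kb elsewhere. Length did not follow the score, with 26.0 kb at scores of 2 to 3, 15.6 kb at -2 to 0 and 9.09 kb below -2. Long non-coding RNA genes were less concentrated, at 8.86 per Mb against 4.72 per Mb. The promoters had a median GC content of 60.0%, against 54.7% in the others, and 62.1% had a CpG content of at least 0.6 of that expected from their bases, against 45.2%. In this respect they were close to promoters at scores of 3 to 4 (59.0% GC, 61.5%), whereas gene density set the 2 classes apart. These are counts over 1 genome, described without a test.

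**Figure D2:**
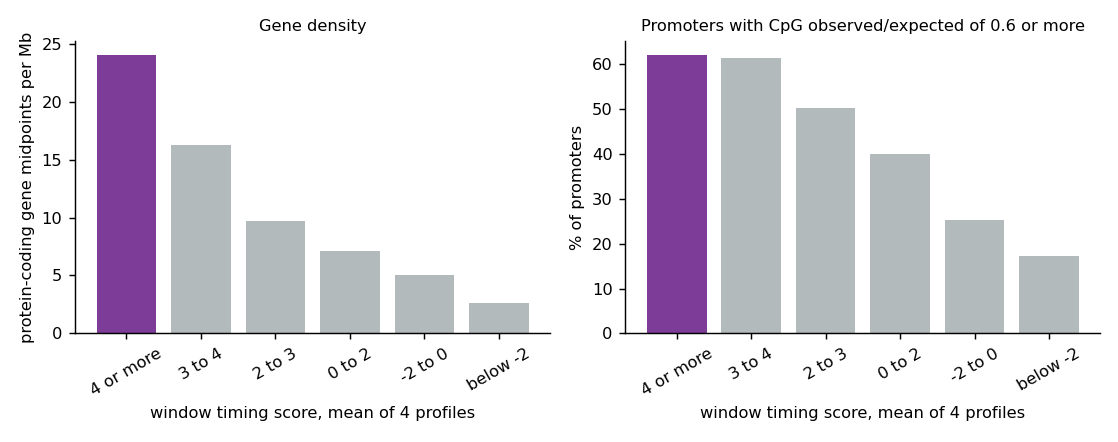
Protein-coding gene midpoints per Mb (left) and percent of promoters with a CpG observed over expected ratio of 0.6 or more (right), by window timing score. The earliest class, in purple, has 24.0 genes per Mb against 16.3 per Mb in the next class, while the CpG-rich share is 62.1% against 61.5%.

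Ribosomal and transfer RNA genes lay in these windows more often than protein-coding genes (27.4%), and small nuclear RNA genes, with 160 of 924 (17.3%), less often. Of 60 autosomal ribosomal RNA genes in the annotation 52 lay in member windows, 48 of them in 1 domain of 500 kb on chromosome 8 from 123.45 to 123.95 Mb, where most are named as 5S genes, the small RNA of the large ribosomal subunit. That domain scored 4.98 and 3.94 in the dTAG profiles and 4.76 and 4.13 in the controls. Of 386 transfer RNA genes 143 (37.0%) lay in member windows, in 33 domains, and 97 of those in 5 domains: 25 in a domain with Sdhc on chromosome 1, 18 in one with Rpl26 on chromosome 11, and 13, 19 and 22 in 3 domains of 100 kb on chromosome 13. MicroRNA genes were members in 330 of 1136 cases (29.0%), close to the share of protein-coding genes. The 5S and transfer RNA genes exist in copies of very similar sequence, and how reads that fit several copies were handled is not given in the sources used here.

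Gene lists differed in how much of them lay in the windows, where 27.4% of all protein-coding genes did. Of 39 autosomal Hox genes 30 were members, all of HoxA, HoxB and HoxC, in 3 domains of 300, 250 and 550 kb. The 9 HoxD genes were not, with window means of 2.09 to 2.62. Splicing factors were members in 23 of 41 cases (56.1%), proteasome subunits in 19 of 36 (52.8%) and translation factors in 28 of 68 (41.2%). Oxidative phosphorylation genes were members in 34 of 93 cases (36.6%), cytosolic ribosomal protein genes in 27 of 74 (36.5%) and DNA replication genes in 18 of 54 (33.3%). Among their highest members were Eif6, a ribosome assembly factor gene (mean 5.36), the proteasome genes Psmc3 and Psmb6 (both 4.99), Atp5l of the mitochondrial ATP synthase (4.88) and the spliceosome gene Eftud2 (4.71). Zfp genes were members in 109 of 388 cases (28.1%), and immediate early genes in 7 of 20, Egr1 the highest of these (4.99). No vomeronasal receptor gene of 351, no replication-dependent histone gene of 62 and no long neuronal or fragile-site gene of 33 was a member, and of 1103 olfactory receptor genes 13 were (1.18%).

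Of 26 pluripotency genes 6 were members (23.1%), a share near that of all protein-coding genes, and 24 (92.3%) lay in windows of 3 or more, against 55.6% of all protein-coding genes. The 6 were Stat3, the effector of LIF signalling (4.52), the growth factor gene Fgf4 (4.44), the RNA-binding protein gene Lin28a (4.29), the nuclear receptor gene Nr5a2 (4.06), and Sox2 and Zfp281 (both 4.03), which encode DNA-binding factors of stem cells. Of 27 genes for YY1, looping proteins and chromatin partners, 9 were members. They were Ino80, the ATPase of a remodelling complex that YY1 joins (4.95), Ring1, Eed, Kdm2b and Rybp of the Polycomb system (4.76, 4.44, 4.21 and 4.11), Yy1 (4.51), the cohesin regulator gene Pds5a (4.37), the acetyltransferase gene Ep300 (4.28) and Ctcf (4.18).

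The comparison of dTAG with control profiles asked whether loss of YY1 moved these windows. The contrast was not part of the rule, which used the mean of all 4 profiles. The set of scores shared within a replicate number limits how far the top of the scale can move as a whole. The member windows averaged 4.37 ± 0.38 after dTAG and 4.43 ± 0.33 in the controls (SD, n = 2 profiles each), a difference of -0.06 with -0.02 in replicate 1 and -0.09 in replicate 2 (exact 2-sided permutation test, p = 0.667, where 4 profiles cannot give less than 0.333). The other autosomal windows differed by 0.01, and members minus others gave -0.07, with -0.03 and -0.11 within the numbers (exact permutation p = 0.667). The first difference was smaller than the SD of either group, which includes the offset between the scales of the replicate numbers. Members minus others were 4.83 and 4.69 in the dTAG profiles and 4.86 and 4.80 in the controls, so the groups overlapped as deposited. With all 4 profiles on 1 distribution the 2 differences were -0.06 and -0.07 (exact permutation p = 0.333 for each). That is the smallest p possible, so on that scale the groups did not overlap. The SD of the 2 within-number differences was 0.05 for the first difference and 0.06 for the second. Both SDs were slightly below the difference itself, but each rests on 2 values. Without dTAG 2 the first value was 0.21 and without control 1 it was 0.18, while without dTAG 1 it was -0.32 and without control 2 it was -0.29, since leaving out 1 profile unbalances the replicate numbers. Without dTAG 2 the second value was 0.00.

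Of the single windows, limma called 0 of 51425 at an adjusted p of 0.05 (0%), members included. Unadjusted, 3 members (0.0639%) had a p under 0.05, against 500 of all windows (0.972%). Blocking on the replicate number, limma also called 0 windows, and 284 members (6.05%) had an unadjusted p under 0.05, against 12.1% of all windows. With the block and a trended, robust variance, a setting chosen with earlier results known, it called 0.906% of all windows as higher after dTAG and 1.94% as lower, and 0 members in either direction. The dTAG profiles were both higher than either control in 277 members (5.90%), against 10.9% of all windows, and both lower in 315 (6.71%), against 8.53%. With all 4 profiles on 1 distribution the counts were 257 higher (5.46%), against 13.7% of all windows, and 576 lower (12.2%), against 12.6%. At a gap of 0.5 or more these counts were 1 member against 0.531% of all windows, and 7 members (0.149%) against 1.09%. The share of higher windows was thus below that of all windows on both scales, and the share of lower windows was below it as deposited and near it on 1 distribution.

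The differences in the 2 replicate numbers had 1 sign in 43.7% of members, against 60.7% of all windows. The share was 53.2% at scores of 3 to 4 and 70.8% at scores of 2 to 3. Both were higher after dTAG in 682 members (14.5%), against 16317 of all 51425 windows. Both were lower in 1369 members (29.2%), against 14899 of all windows, so the share of higher members was the reduced one. Across the 4695 members the differences correlated at r = -0.18, against 0.36 across all 51425 windows. Members of a domain share smoothed reads, so these values describe the profiles and are given without a test. The SD of the differences over member windows was 0.44 in each replicate number. It was 0.22 in replicate 1 and 0.32 in replicate 2 at scores of 3 to 4, and 0.35 and 0.52 over all windows, so in replicate 2 the members were less spread than the whole.

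A dependence on gene number differed between the replicate numbers. In the 1383 members with no protein-coding midpoint the differences averaged -0.07 in replicate 1 and 0.01 in replicate 2. In the 573 members with 3 or more they averaged 0.04 and -0.29. The profile that moved most was dTAG 2, which averaged 3.87 in the gene-rich members and 4.21 in those without a midpoint, whereas control 2 averaged 4.16 and 4.20. In replicate 1 both profiles were higher in gene-rich members, dTAG 1 by 0.27 and control 1 by 0.17. Of the 88 members with 5 or more genes, 46.6% were higher after dTAG in replicate 1 and lower in replicate 2, and 10.2% showed the reverse, against 25.5% and 30.7% of those with none. Gene-rich minus gene-free members differed by -0.10 between dTAG and control, with 0.11 and -0.30 within the numbers (exact permutation p = 1.0), so the sign depended on the replicate number. The same pattern was present at scores of 3 to 4, where the differences averaged 0.07 and -0.14 at 3 or more genes and 0.0038 and 0.11 with none.

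**Figure D3:**
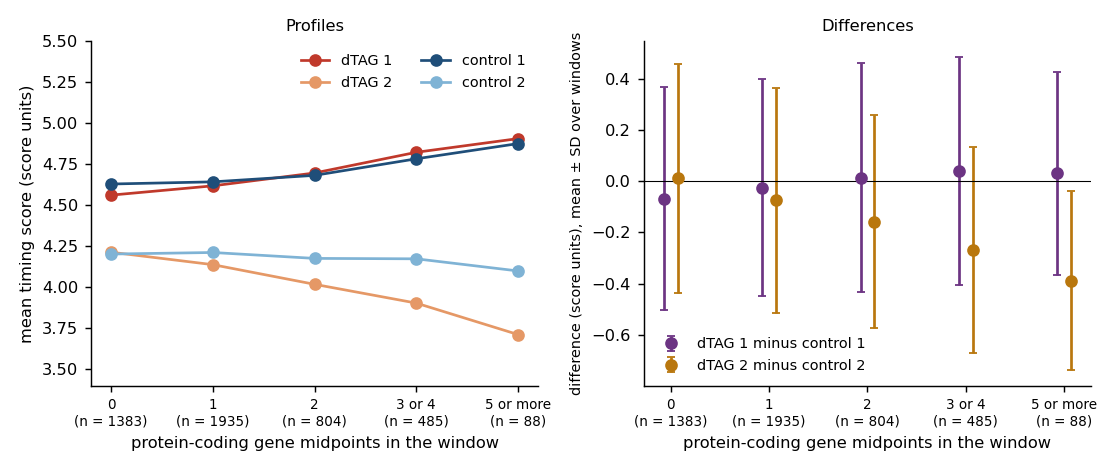
Mean timing score of each profile (left) and mean dTAG minus control difference with its SD over windows (right), both in score units, for the 4695 member windows by number of protein-coding gene midpoints. The dTAG 2 line falls away from control 2 with gene number, to a mean difference of -0.39 at 5 or more genes, while the difference in replicate 1 stays between -0.07 and 0.04.

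Joined into domains, the windows showed the same picture. In a fit of 47550 features, the 820 domains and every window outside them, limma called 0 (0%), with 516 at an unadjusted p under 0.05, of which 1 was a domain. Both differences were positive in 141 domains, negative in 214 and of opposite sign in 465. They had 1 sign in 43.3% of domains, against 60.7% of all single windows, of which 16317 were positive and 14899 negative in both. Differences ranged from -1.09 to 0.90 in replicate 1 and from -0.90 to 2.08 in replicate 2. In 6 domains both exceeded 0.5 in size with 1 sign, all 6 lower after dTAG, and in 4 they exceeded 0.5 with opposite signs, all 4 higher in dTAG 1 and lower in dTAG 2. Those 4, named after their values were seen, held Enah, Dnm1, Brsk1 and Tfcp2. The dTAG and control profiles overlapped in 715 domains, 54 lay above both controls (6.59%) and 51 below both (6.22%), against 10.9% and 8.53% of all single windows. An overlap here can be between profiles of different replicate numbers, which are on different scales. Replicate 2 minus replicate 1 was -0.50 over member windows and -0.40 over all windows, so these shares are not on equal terms.

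The domain furthest down lay on chromosome 1 from 37.0 to 37.15 Mb, overlapped Vwa3b and scored 4.04 and 4.25 in the dTAG profiles, against 5.02 and 5.07 in the controls. Both dTAG profiles lay below both controls by 0.77, the widest gap of any domain, and the difference was -0.90 (limma, SE 0.32, unadjusted p = 0.0409, adjusted p = 1.0, or 0.192 with the replicate block). Leaving out 1 profile gave -0.79 to -1.0. Also among the 5 lowest were domains on chromosome 14 with Pbrm1, a chromatin remodelling gene (-1.09 in replicate 1 and -0.48 in replicate 2), on chromosome 19 with the elongation factor gene Eef1g (-0.64 and -0.63) and on chromosome 8 with N4bp1 (-0.76 and -0.45). At Pbrm1 and Eef1g the groups overlapped, since dTAG 1 scored above control 2, a comparison across the different scales of the replicate numbers. The dTAG mean was below 4 at Pbrm1 (3.87), Eef1g (3.93) and N4bp1 (3.81), so their means reached 4 only with the control scores. Other domains with both differences beyond -0.5, named after their values were seen, held Nos1, Snrpd3 and Tpst2.

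In the opposite direction, the domain on chromosome 13 from 21.9 to 22.0 Mb, with Zfp184 and 19 transfer RNA genes, scored 4.44 and 5.45 in the dTAG profiles, against 4.38 and 3.36 in the controls. The difference of 1.07 rested on the second profiles, being 0.06 within replicate 1 and 2.08 within replicate 2. Omitting dTAG 2 or control 2 left 0.56. The other 2 chromosome 13 domains rich in transfer RNA genes behaved alike, with -0.07 and 1.43 at 21.2 to 21.3 Mb and -0.39 and 1.61 at 23.4 to 23.5 Mb. On the same chromosome from 112.65 to 112.9 Mb, with the lysosomal transporter gene Slc38a9 and the germ line helicase gene Ddx4, the scores were 4.54 and 4.88 after dTAG, against 4.25 and 3.79 (0.29 and 1.09), and 1 of its windows was the only member with both dTAG profiles 0.5 or more above both controls. The domain with Atm, the DNA damage kinase gene, and Npat, an activator of histone genes, scored 4.28 and 4.71 after dTAG, against 4.01 and 4.01 in the controls (0.28 and 0.70). Single windows with Adk (0.10 and 1.11) and Patl1 (0.14 and 0.81) completed the 5 highest. The control mean was below 4 at Zfp184 (3.87), Adk (3.74) and Patl1 (3.83), so their means reached 4 only with the dTAG scores. None of these domains passed limma with or without the replicate block.

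**Figure D4:**
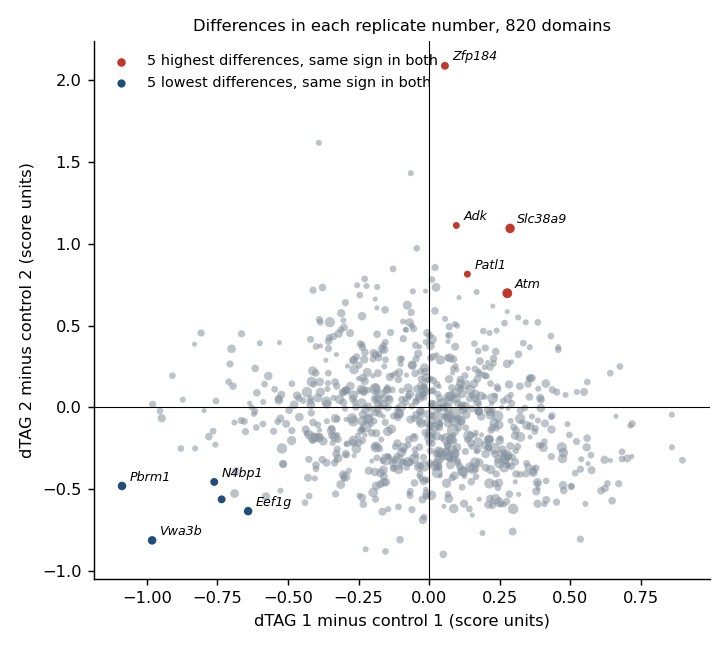
Difference in timing score (score units) in replicate 2 against that in replicate 1 for the 820 domains, with point size growing with domain length. Colours mark the 5 highest and 5 lowest mean differences among domains with 1 sign in both numbers, from Zfp184 (0.06 and 2.08) to Vwa3b (-0.98 and -0.81), with the gene named where the text gives it.

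**Figure D5:**
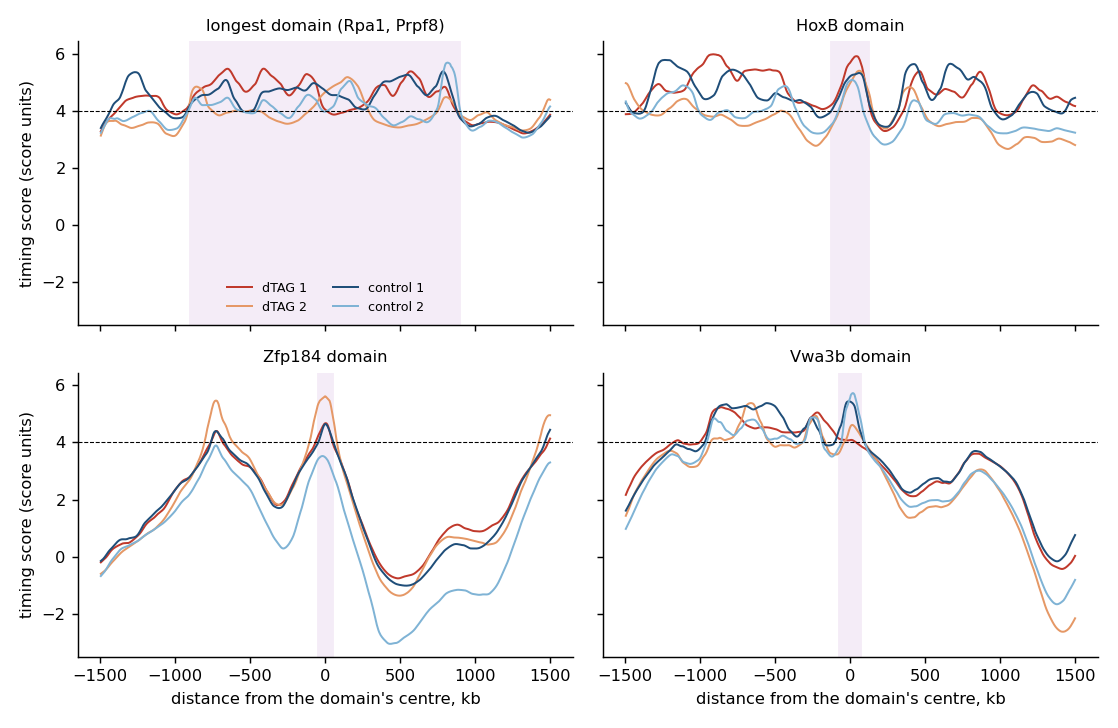
Timing score (score units) at 5 kb positions around 4 domains, shaded, by distance from the domain's centre in kb, with 1 line for each profile and the threshold of 4 dashed. At Vwa3b both dTAG lines run below both control lines inside the domain, whereas at Zfp184 the lines of replicate 1 coincide and dTAG 2 and control 2 stand apart.

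In no Hox domain did both dTAG profiles lie beyond both controls. HoxB scored 5.20 and 4.69 in the dTAG profiles and 4.88 and 4.36 in the controls, a difference of 0.32 in both replicate numbers. Its overlap was between dTAG 2 and control 1, which are on different scales. With the replicate block limma did not call it (adjusted p = 0.490). HoxA gave -0.23 in replicate 1 and 0.18 in replicate 2, and HoxC 0.04 and 0.29.

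Among listed genes, differences of 1 sign in both numbers occurred in both directions, and limma called none. Yy1 scored 4.47 and 4.17 in the dTAG profiles and 4.71 and 4.69 in the controls (-0.24 and -0.52). Ring1, which encodes a Polycomb ubiquitin ligase, scored 4.93 and 4.04, against 5.21 and 4.85 (-0.28 and -0.81). These are the windows of the gene midpoints, where the groups did not overlap at Yy1 and overlapped at Ring1. The overlap at Ring1 was between dTAG 1 and control 2, which are on different scales. In the neighbouring window that holds the Yy1 promoter printed above the groups overlapped, with 4.5 and 3.94 in the dTAG profiles and 4.34 and 4.81 in the controls. Stat3 gave 0.24 and 0.10, Pds5a 0.06 and 0.12, and Ep300 -0.27 and -0.26. Fgf4 and Lin28a had opposite signs, with 0.91 and -0.22 at Fgf4 and 0.07 and -0.89 at Lin28a. Lowest in their lists were Atp5l (-0.91 and -0.48), the phosphatase gene Dusp1 (-0.56 and -0.70), the spliceosome gene Snrpd3 (-0.55 and -0.61), Pold2 (-0.60 and -0.50), the ribosomal protein gene Rps19 (-0.35 and -0.67) and the proteasome gene Psma7 (-0.58 and -0.43). Highest in their lists, with opposite signs, were the proteasome gene Psmb5 (1.17 and -0.55), the replication helicase gene Gins2 (0.92 and -0.06), Cox6b1 of respiratory complex IV (0.88 and -0.38), the immediate early gene Ier3 (0.70 and -0.19) and the ribosomal protein gene Rpl21 (-0.03 and 0.74). Highest with both positive were the splicing factor gene Srsf10 (0.57 and 0.11), the translation factor gene Eif4e1b (0.34 and 0.21) and Hoxb1 and Hoxb2, which share a window (0.12 and 1.21). Of all member windows 29.2% had both differences negative and 14.5% both positive. These include 1383 windows without a gene midpoint, so they are not shares over genes. The replicate 2 difference was positive in 48.5% of those 1383, but in 19.0% of members with 3 or more midpoints. Among genes of the lists in member windows, both were negative in 10 and positive in 2 of 23 splicing factors, 11 and 2 of 28 translation factors, 7 and 1 of 19 proteasome genes, 9 and 1 of 34 oxidative phosphorylation genes, 7 and 1 of 27 ribosomal protein genes, and 4 and 1 of 18 replication genes. They were negative in 3 and positive in 1 of 9 YY1 partner genes, 2 and 1 of 7 immediate early genes, and 27 and 18 of 109 Zfp genes. More were positive than negative among Hox genes (9 positive and 4 negative of 30), olfactory receptor genes (5 and 0 of 13) and pluripotency genes (2 and 0 of 6). Genes of a cluster share windows, so these counts are not of independent loci. The same counts over all genes in member windows are not given here, so whether any list departs from other genes was not tested.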

How the data were processed

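Repli-seq profiles of mouse embryonic stem cells were used as deposited. The authors' table gives 1 score for each profile at 5 kb positions on mm10, Loess-smoothed and quantile-normalized per the name the authors gave the deposited table. The formula is not given in the sources used here. Bowtie2, SAMtools and bedtools are named in the submitters' processing notes, with versions not given in the sources used here. In the table the profiles of replicate 1 hold 1 set of values, and those of replicate 2 hold that set with its sign turned.

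Scores were averaged over windows of 50 kb with 5 or more positions, and members and their domains were taken from the mean of the 4 profiles. The dTAG and control profiles were compared in limma 3.58.1 (R 4.3.3) over all 51425 windows without a replicate block, with Benjamini-Hochberg adjustment over all windows at 0.05, and single values by exact permutation over profiles (scipy 1.17.1). The fit was tested on simulated data that had no offset between replicate numbers, so that test does not show which changes it could find in these profiles. The alternatives were 1 distribution for all profiles, other thresholds, window sizes and window summaries, a replicate block, another variance model, members chosen on the controls, joining across gaps, and leaving out each profile.

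Genes were placed by midpoint, with coordinates, promoters and microRNAs from RefSeq tables of GRCm38.p6, the assembly of mm10. The members and lists were chosen with earlier results of these data known. Domains named were the 10 longest, the 5 highest in score and the 5 highest and 5 lowest in difference among those with 1 sign in both replicate numbers, each with up to 4 of its genes. Listed genes named were all pluripotency and YY1 partner genes in the windows and, of other lists, the highest by score and the extremes by difference. The printed sequences, the highest and most gene-dense windows and the domains of small RNA genes were chosen after their values were seen. A few genes of these rules are not reported here.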

Additional observations from a re-analysis of the deposited data

How the results depend on the processing

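The number of windows followed the threshold, with 8683 windows (18.1% of the autosomal ones) at 3.5 and 1590 (3.31%, in 541 domains) at 4.5, and 2354 windows at a window size of 100 kb. No setting called a member window or a domain. Over all windows limma called 1462 with the replicate block and a trended, robust variance, a setting chosen with earlier results known, and 0 to 4 when 1 profile was left out (3 without dTAG 1 and 4 without dTAG 2). The mean difference of the members kept its sign under every alternative other than leaving out control 1 (0.18) or dTAG 2 (0.21), within a range of -0.32 to 0.21 over the 4 omissions. Members minus other windows ranged over -0.14 to 0.0026, the last without dTAG 2. The counts of windows with both dTAG profiles above both controls were 869 at a threshold of 3.5, 60 at 4.5, 121 in 100 kb windows and 177 with members chosen on the controls. The counts below both controls were 502 at 3.5, 149 at 4.5, 155 in 100 kb windows and 378 with members chosen on the controls. That last choice uses the control values of the contrast itself and favours windows in which the controls are high. Its counts and its mean difference of -0.096 therefore cannot show whether the contrast depends on the rule. Over all 50 kb windows the shares were 10.9% above and 8.53% below. With 1 profile left out, and so fewer profiles to separate, 513 to 1950 of the 4695 members lay above and 533 to 2697 below. The same counts over all windows were not made for 100 kb windows or with 1 profile left out, so there these counts have no background. Paired by replicate number, 682 members were higher and 1369 lower in both numbers, against 16317 and 14899 of all 51425 windows. With 1 distribution for all 4 profiles, 576 members lay below both controls and 257 above both, and 17 had an unadjusted p under 0.05. The mean difference was then -0.06 and members minus other windows -0.07 (exact permutation p = 0.333 for each, the smallest that 4 profiles can give). With the replicate block the mean difference was -0.06 ± 0.05 (SD of the 2 within-number differences), 0 windows were called, and 284 members and 17 domains had an unadjusted p under 0.05. Same-numbered profiles deviated together (r = 0.77 over all windows, 0.50 over members), but with 2 pairs this is a hint from the data and not a design. Of the 25 named domains, 11 had the other sign without dTAG 2, 10 without control 1, 4 without dTAG 1 and 3 without control 2. Leaving out 1 profile unbalances the replicate numbers, so these signs also carry the offset between their scales. With 2 profiles a group, smoothed values and unknown depth, small differences could not be resolved. Without the block, the fit also counts the offset between the scales of the replicate numbers as spread.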
